A study of Mus musculus with 6 samples.

Results

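The genes described here build or control the motile cilia of ependymal cells, the ciliated cells that line the ventricles of the brain. They are a list of 38 genes, chosen by symbol and covering the transcription factors of the ciliary programme, marker genes of ependymal cells and the parts of the ciliary shaft. All 38 were among the 18058 genes of the deposited table, all 38 had a mean of at least 0.1 CPM (read counts scaled to library size), and they are 38 of the 16762 genes tested. Brainstems of mice at 1 month of age were snap-frozen whole and gave total RNA, 3 wild type (WT, C57BL/6J) and 3 Rag1-/- (B6.129S7-Rag1tm1Mom/J), with 1 mouse per library. Rag1-/- mice carry a germline disruption of Rag1, a gene of the recombinase that assembles antigen receptors, and lack mature T and B cells; neither group is stated to have received cells or an agent. The study compared these libraries in search of molecules through which a lack of CD4+ T cells could permit low-grade glioma growth from implanted cells. Because the tissue is a whole brainstem and ependymal cells are a small part of it, fewer such cells and less RNA per cell cannot be told apart in any value below.

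A motile cilium beats by sliding the doublet microtubules of its shaft, the axoneme, against each other. Outer and inner dynein arms are the motors, and radial spokes and the central pair pass signals that time them. Ruler proteins space the repeats, nexin links join neighbouring doublets, and proteins inside the doublets stiffen them. In ependyma, tufts of such cilia move cerebrospinal fluid. Foxj1 and the RFX factors switch on the genes of this programme, and primary cilia, which do not beat, share the intraflagellar transport machinery with motile cilia but lack most of the axonemal motors.

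RFX factors bind an inverted repeat called the X-box, and the letters upstream of these genes can be read for it. RefSeq windows of 250 bases before and 50 bases after a transcript start (GRCm38.p6, the assembly also called mm10) were matched for 33 of the 38 genes. A spaced form of the X-box, GTNNCC and GNAAC with 3 bases between them, searched on both strands, was found in windows of 6 of the 33 genes (18.2%), against 2.49% of the 27025 genes with a window. The shorter GTTGCC, an arm of the X-box that can lie within the longer form, was found for 15 of 33 (45.5%), against 14.1% of all genes, 34 of 63 other motile cilia genes (54.0%) and 11 of 23 intraflagellar transport genes (47.8%). A forkhead-type core, TAAACA, was found for 11 of 33 (33.3%), against 15.1% of all genes, 12.7% of other motile cilia genes (8 of 63) and 3 of 10 choroid plexus genes, and the longer GTAAACA for 3 of 33 (9.09%), against 4.05% of all genes. The spellings given here were chosen, out of 9 counted in all, after their counts were known. Stretches of 30 bases that end before the start annotated in the deposited table are shown for 5 genes, because the same letters stand before genes that differ in their genotype values. The capitals mark the spaced form in Hydin (central pair) and Cfap44 (axonemal protein), and GTTGCC or its reverse complement in Dnah10 (inner dynein arm), Enkur (inner doublet protein) and Ccdc113 (axonemal protein).
Hydin, chr8:110266947-110266976, plus strand: cactctgcgGTTGCTGTGGCAACagatggt
Cfap44, chr16:44394764-44394793, plus strand: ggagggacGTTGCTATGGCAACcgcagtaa
Dnah10, chr5:124725053-124725082, plus strand: cgcgctggcgccGTTGCCcaggtccccgtt
Enkur, chr2:21205382-21205411, minus strand: gataaaagccagGTTGCCccgtctcctagc
Ccdc113, chr8:95534070-95534099, plus strand: ctataaacagcgttcagttgtctaGGCAAC
The capitals begin 21 bases before the start in Hydin, 27 in Cfap44, 20 in Dnah10, 34 in Enkur and 6 in Ccdc113. Among genes with a window, the 15 that hold GTTGCC had a median genotype difference of -0.25 (log2) and the 18 that do not hold it -0.44. With and without the spaced form the medians were -0.33 and -0.31, and with and without TAAACA they were -0.32 and -0.30. A match is a description of the sequence only.

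Before the comparison, 3 properties of the libraries have to be known. Rag1 transcripts were at 0.236, 0.388 and 0.115 CPM in WT, against 2.60, 4.02 and 2.90 CPM among libraries labelled Rag1-/-, higher and not lower there, so those libraries are named by their label and every direction rests on it. Xist reached 172 and 177 CPM in replicates 1 and 2 of WT but 2.93 CPM in WT replicate 3 and 0.462 to 0.738 CPM among libraries labelled Rag1-/-, and Ddx3y showed the opposite order. By these transcripts, sex and genotype were not balanced. Estimated depth was 31600000 to 46400000 reads per library, and 3 reads equal 0.0646 to 0.0950 CPM; the lowest value of any of the 38 genes was 0.380 CPM (Spag17), about 12 reads.

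All values of the 38 genes were therefore above the level of 3 reads, which covers counting error only. Their mean levels ran from 0.659 CPM for Armc4 to 26.1 CPM for Foxj1, with a median of 2.76 CPM. Per kilobase of the longest annotated transcript, Foxj1 was highest at a mean level of 9.93 CPM per kilobase, followed by Rsph9 at 8.44, Rsph1 at 3.81, Tmem212 at 2.97 and Ccdc153 at 2.79 CPM per kilobase. The long dynein Dnah11 was lowest at 0.0837 CPM per kilobase. The ependymal markers Ccdc153 and Tmem212 were above the level of 3 reads in all 6 libraries.

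Genotype was compared for each gene by limma-trend on log2(CPM + 0.1), a scale that understates changes of low genes. Where values of both groups follow each other, WT comes first. With Benjamini-Hochberg adjustment over all 16762 genes, 0 of the 38 had an adjusted p under 0.05, against 8 genes overall (0.0477%), and the smallest adjusted p among them was 0.328, for Dnah6. At p of at most 0.05 before adjustment, 12 of the 38 (31.6%) were lower in the libraries labelled Rag1-/-, where 9.29% of all tested genes were, and 0 were higher, where 2.27% of all genes were. The log2 difference was negative for 36 of the 38 genes (94.7%), against 67.7% of all genes. It was negative for 33 of the 38 under each of the rescalings below (52.4% and 49.1% of all genes), for 31 without WT replicate 1 (65.5%) and for 29 (76.3%) with a term for high Xist (62.6%), a fit that leaves WT replicate 3 as the only WT library in the comparison. Its median was -0.32, with quartiles of -0.51 and -0.25, against a median of -0.05 over all genes. In 9 of the 38 (23.7%) every library labelled Rag1-/- was below every WT library, against 14.4% of all genes, and in 0 was every such library above, against 3.98%. The share of lower genes in the background depended on scaling: median-of-ratios rescaling gave 696 lower and 834 higher genes at p of at most 0.05 in place of 1558 and 380, and quantile normalization gave 640 and 855, while the 38 genes then gave 10 and 7 lower and 0 higher.

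**Figure D1:**
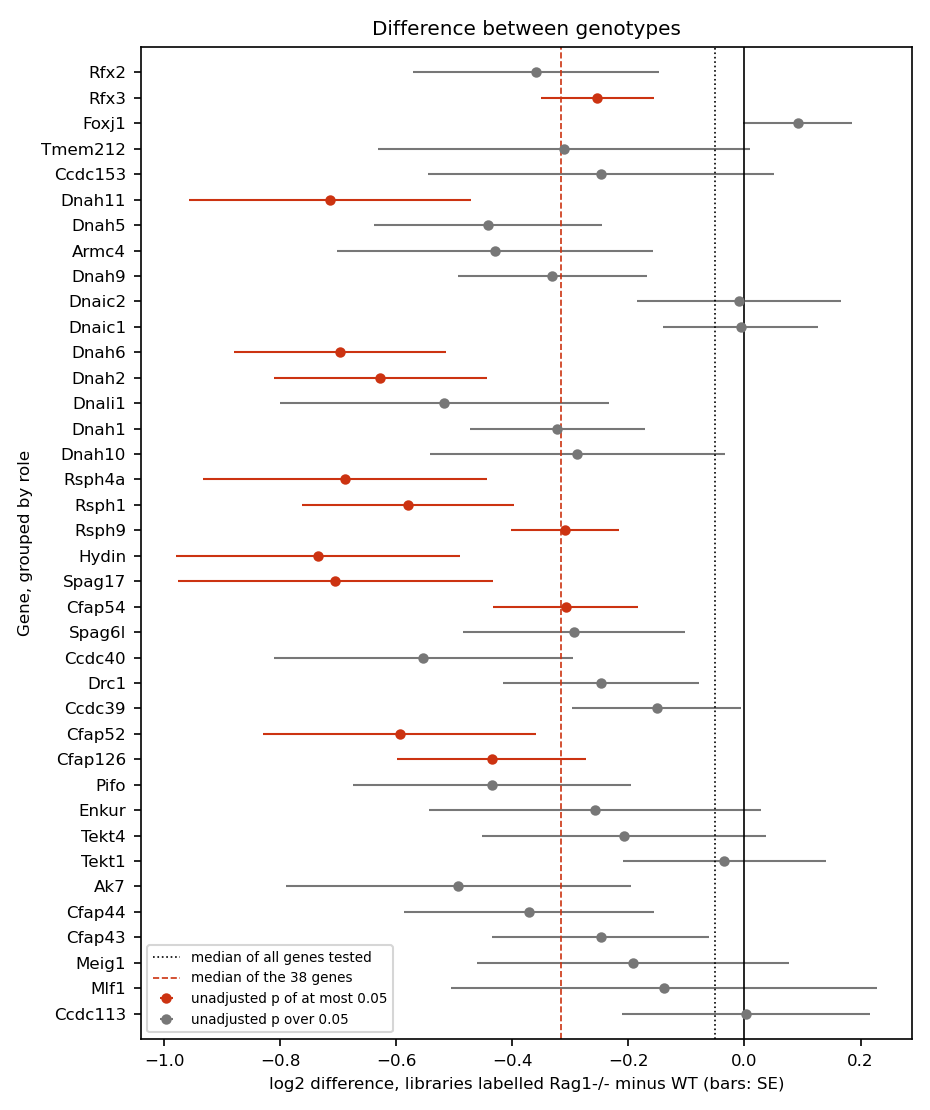
Log2 difference of each of the 38 genes between the libraries labelled Rag1-/- and WT (x axis, points with standard error bars), grouped by role on the y axis. Red points mark the 12 genes that had p of at most 0.05 before adjustment, all to the left of 0; the dashed line is the median of the 38 genes (-0.32) and the dotted line that of all genes tested (-0.05).

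The counts moved with single libraries. Without WT replicate 1 the number of genes lower at p of at most 0.05 was 5 of 38 (13.2%), where 7.09% of all genes were lower, and without Rag1-/- replicate 3 it was also 5, where 7.53% were. Without WT replicate 2 it was 18 (47.4%), where 9.73% of all genes were. The number of genes with every library labelled Rag1-/- below WT, 9 with all libraries, was 19 (50%) without WT replicate 2 and 23 (60.5%) without Rag1-/- replicate 1, where 23.5% and 19.1% of all genes were separated in this way, and 9 to 11 without any one of the other libraries. Without WT replicate 1 the count was 9 of 38 (23.7%), where it was 3436 of all 16760 genes tested. The 4 genes Dnah6, Dnah2, Rsph1 and Rsph9 were lower at p of at most 0.05 in each of the 6 fits that left out 1 library, and 13 of the 38 were in 0 of those fits. In the single fits, 5.18% to 9.73% of all genes were lower. These fits share most of their libraries, and the share of all genes lower in every one of them was not counted. A term for high Xist takes up the level of WT replicates 1 and 2, so the genotype difference in that fit is WT replicate 3 alone against the 3 libraries labelled Rag1-/-, with the lone library assumed to vary like the others. In it 7 of 38 genes (18.4%) were lower, where 12.3% of all genes were, and 4 of these 7 were among the 12 (Rsph9, Dnah11, Dnah6 and Hydin). The median difference from WT replicate 3 was -0.36.

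Of the 3 transcription factors, 1 was lower at p of at most 0.05, where 9.29% of all genes were. Foxj1 (chromosome 11, 116330704 to 116335354, minus strand), the forkhead factor that starts the motile programme, was at 28.7, 24.5 and 22.6 CPM in WT, against 29.3, 25.6 and 25.7 CPM among libraries labelled Rag1-/-. The groups overlapped, and the log2 difference was 0.09 (SE 0.09, limma-trend adjusted p = 0.721). Foxj1 and Ccdc113 were the 2 of the 38 genes with a positive difference. Without WT replicate 1 the difference of Foxj1 was 0.19, with p just under 0.05 before adjustment (limma-trend adjusted p = 0.567). Rfx3 (chromosome 19, 27761721 to 28011166, minus strand), an RFX factor of motile and primary cilia, was at 12.9, 13.1 and 13.7 CPM in WT and at 9.62, 12.5 and 11.3 CPM in the others, without overlap. Its log2 difference was -0.25 (SE 0.10, limma-trend adjusted p = 0.393). Rfx2, a related factor, had means of 2.37 ± 0.665 and 1.80 ± 0.308 CPM (SD, n = 3 each), and its groups overlapped.

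Divided by the level of Foxj1, the summed level of the other genes separated the groups, which it did not do undivided. The summed CPM of the other 37 genes per CPM of Foxj1 was 4.86, 4.28 and 5.41 in WT and 3.73, 3.71 and 3.19 in the libraries labelled Rag1-/-. Every WT value lay above every other value. This ratio was formed after the single values had been seen and is given without a test. Foxj1 had the highest log2 difference of the list (0.09), so dividing by it widens the difference between the group means. Undivided, the sum of the other 37 genes was 140, 105 and 122 CPM in WT. Among libraries labelled Rag1-/- it was 109, 94.9 and 82.0 CPM, so the groups overlapped. Ratios to other genes are not shown.

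Of the ependymal markers, Ccdc153 (chromosome 9, 44240677 to 44247306, plus strand), a coiled-coil protein used to mark these cells, was at 4.41, 2.74 and 2.64 CPM in WT, against 4.07, 2.60 and 1.77 CPM among libraries labelled Rag1-/-. Tmem212 (chromosome 3, 27866065 to 27896368, minus strand), a membrane protein of ependyma, was at 3.28, 1.74 and 2.01 CPM and at 2.45, 2.19 and 1.08 CPM. In both genes WT replicate 1 was the highest library and Rag1-/- replicate 3 the lowest, and the groups overlapped. Their log2 differences were -0.25 (SE 0.30) and -0.31 (SE 0.32), with limma-trend adjusted p = 0.767 and 0.726.

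**Figure D2:**
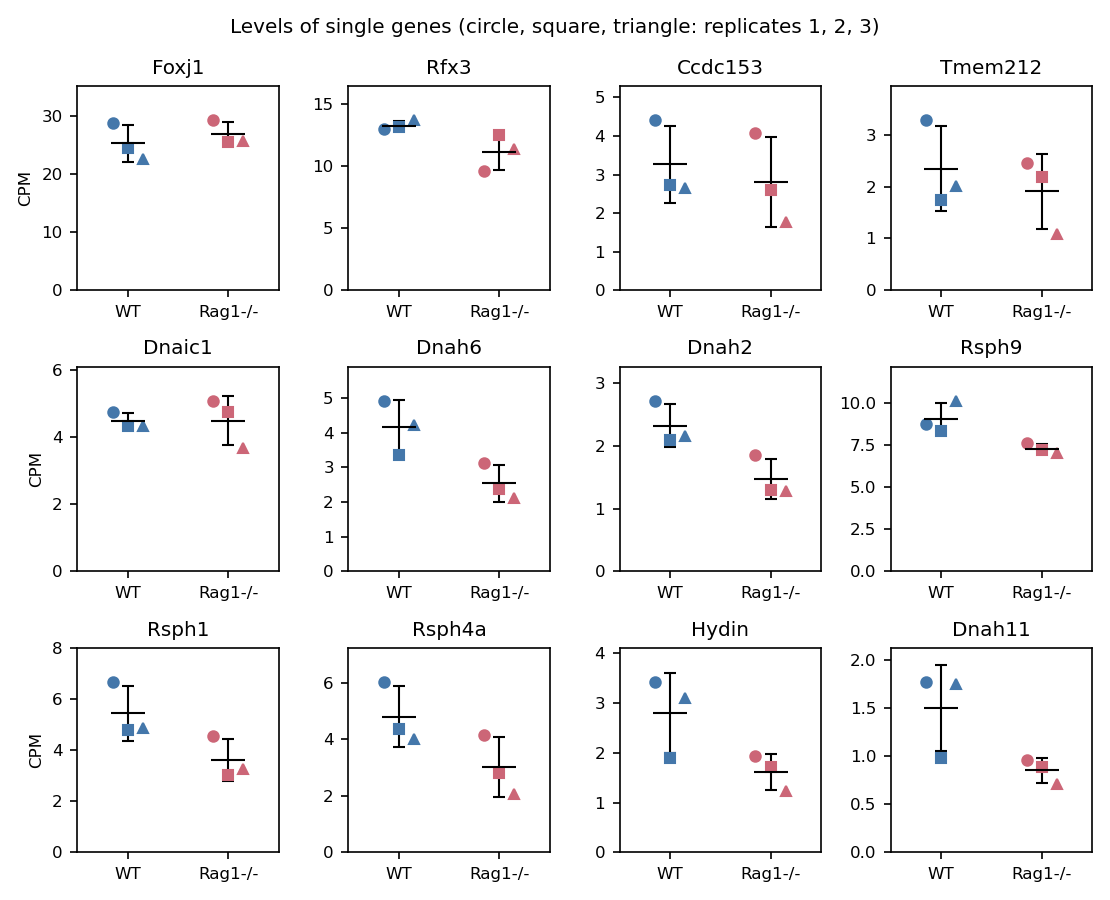
CPM of 12 genes in each library (y axes start at 0); circles, squares and triangles are replicates 1, 2 and 3, the bar is the mean and the error bar the SD of 3 libraries. Foxj1 means are 25.3 CPM in WT and 26.8 CPM in the other group, while in Dnah6, Dnah2, Rsph9, Rsph1, Dnah11 and Rfx3 the 3 libraries labelled Rag1-/- all lie below the 3 WT libraries.

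Outer dynein arm genes, which encode the motors that set beat frequency, had a median log2 difference of -0.38 over 6 genes. At p of at most 0.05, 1 of 6 was lower, where 9.29% of all genes were. Within this group the heavy chains and the intermediate chains gave different values, a contrast that was not tested. It goes along with transcript length, which was 13798 to 15637 bases in the heavy chains. The intermediate chains Dnaic1 and Dnaic2 had 2510 and 2874 bases. Dnah11 (chromosome 12, 117877982 to 118199043, minus strand), a heavy chain, was at 1.77, 0.985 and 1.75 CPM in WT, against 0.964, 0.886 and 0.710 CPM among libraries labelled Rag1-/-. WT replicate 2 lay just above the others, and the log2 difference was -0.71 (SE 0.24, limma-trend p of 0.0175, adjusted p = 0.372). The heavy chains Dnah5 and Dnah9 had differences of -0.44 and -0.33, with overlapping groups. In contrast, the intermediate chain Dnaic1 (chromosome 4, 41569794 to 41638158, plus strand) was at 4.77, 4.35 and 4.34 CPM in WT and at 5.08, 4.75 and 3.67 CPM in the others. Its log2 difference was -0.01 (SE 0.13, limma-trend adjusted p = 0.988), and that of the intermediate chain Dnaic2 was -0.01 (SE 0.18). Armc4, which helps dock the outer arm, had the lowest mean CPM of the list, at 0.777 ± 0.260 CPM in WT, against 0.540 ± 0.134 CPM among libraries labelled Rag1-/- (SD, n = 3 each).

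Inner dynein arm genes, whose motors shape the bend, had a median of -0.52 over 5 genes. At p of at most 0.05, 2 of 5 were lower, where 9.29% of all genes were. Dnah6 (chromosome 6, 73017607 to 73221631, minus strand), a heavy chain, had the smallest p of the 38 genes. It was at 4.91, 3.36 and 4.23 CPM in WT, against 3.12, 2.38 and 2.11 CPM among libraries labelled Rag1-/-, a log2 difference of -0.70 (SE 0.18, limma-trend p of 0.00453, adjusted p = 0.328). Dnah2 (chromosome 11, 69420809 to 69549108, minus strand), another heavy chain, was at 2.71, 2.09 and 2.16 CPM and at 1.85, 1.30 and 1.28 CPM, a log2 difference of -0.63 (SE 0.18, limma-trend p of 0.00815, adjusted p = 0.340). In both, all libraries labelled Rag1-/- lay below all WT libraries, and an exact permutation test over the 6 libraries (two-sided) returned p = 0.1, which is as low as 3 against 3 can reach. Dnah1 (chromosome 14, 31260375 to 31323896, minus strand), the heavy chain with the highest mean CPM of the group, was at 7.93, 6.5 and 9.66 CPM in WT and at 6.56, 7.0 and 5.5 CPM in the others, with overlap. Dnah10 and the light intermediate chain Dnali1 had differences of -0.29 and -0.52, also with overlap. Over all 7 dynein heavy chains on the list, the median difference was -0.44, 3 of 7 were lower at p of at most 0.05 and 7 of 7 had a negative difference. All 7 have transcripts over 5000 bases, and of all genes of that length 18.8% were lower at p of at most 0.05 and 82.8% had a negative difference.

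Among the roles, which hold 2 to 6 genes each, radial spoke genes gave the lowest median, -0.58. At p of at most 0.05, 3 of 3 were lower, where 9.29% of all genes were. The roles were ranked after their values were known, and their genes varied together across libraries. Rsph9 (chromosome 17, 46129277 to 46144198, minus strand), a spoke head protein, was at 8.73, 8.34 and 10.1 CPM in WT, against 7.60, 7.19 and 7.0 CPM among libraries labelled Rag1-/-. Its replicates were close, and a small log2 difference of -0.31 (SE 0.09) went with a limma-trend p of 0.00927 (adjusted p = 0.340). Rsph1 (chromosome 17, 31255020 to 31277356, minus strand), also of the spoke head, was at 6.68, 4.78 and 4.89 CPM and at 4.56, 3.04 and 3.27 CPM. Neither gene overlapped between the groups. Rsph1 had a log2 difference of -0.58 (SE 0.18, limma-trend p of 0.0119, adjusted p = 0.354). Rsph4a, a further spoke head gene, had means of 4.80 ± 1.07 and 3.01 ± 1.06 CPM (SD, n = 3 each), and Rag1-/- replicate 1, at 4.16 CPM, overlapped with WT.

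Central pair genes had a median of -0.51. At p of at most 0.05, 3 of 4 were lower, where 9.29% of all genes were. These 3, Hydin, Spag17 and Cfap54, have transcripts over 5000 bases, and of all genes of that length 18.8% were lower. Hydin (chromosome 8, 110266977 to 110610253, plus strand), a very large projection protein whose loss causes hydrocephalus in mice, had the most negative log2 difference of the list. By the ratio of WT mean to the other mean, Spag17 (1.77) and Dnah11 (1.76) exceeded Hydin (1.73). Hydin is described next. This gene was at 3.42, 1.90 and 3.10 CPM in WT, against 1.94, 1.71 and 1.22 CPM among libraries labelled Rag1-/-, so WT replicate 2 lay within the range of the other group. The log2 difference was -0.74 (SE 0.24, limma-trend p of 0.0156, adjusted p = 0.368). Spag17 (chromosome 3, 99885417 to 100143322, plus strand), a scaffold of the central pair, was at 1.18, 0.648 and 0.780 CPM and at 0.436, 0.380 and 0.658 CPM, a log2 difference of -0.71 (SE 0.27) with overlap. Cfap54, another projection gene, had means of 3.39 ± 0.162 and 2.73 ± 0.327 CPM (SD, n = 3 each) without overlap. Spag6l (chromosome 16, 16753016 to 16829363, minus strand) was at 4.88, 3.31 and 2.90 CPM and at 3.32, 2.82 and 2.68 CPM, with overlap, and its reads may be shared with its near copy Spag6.

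**Figure D3:**
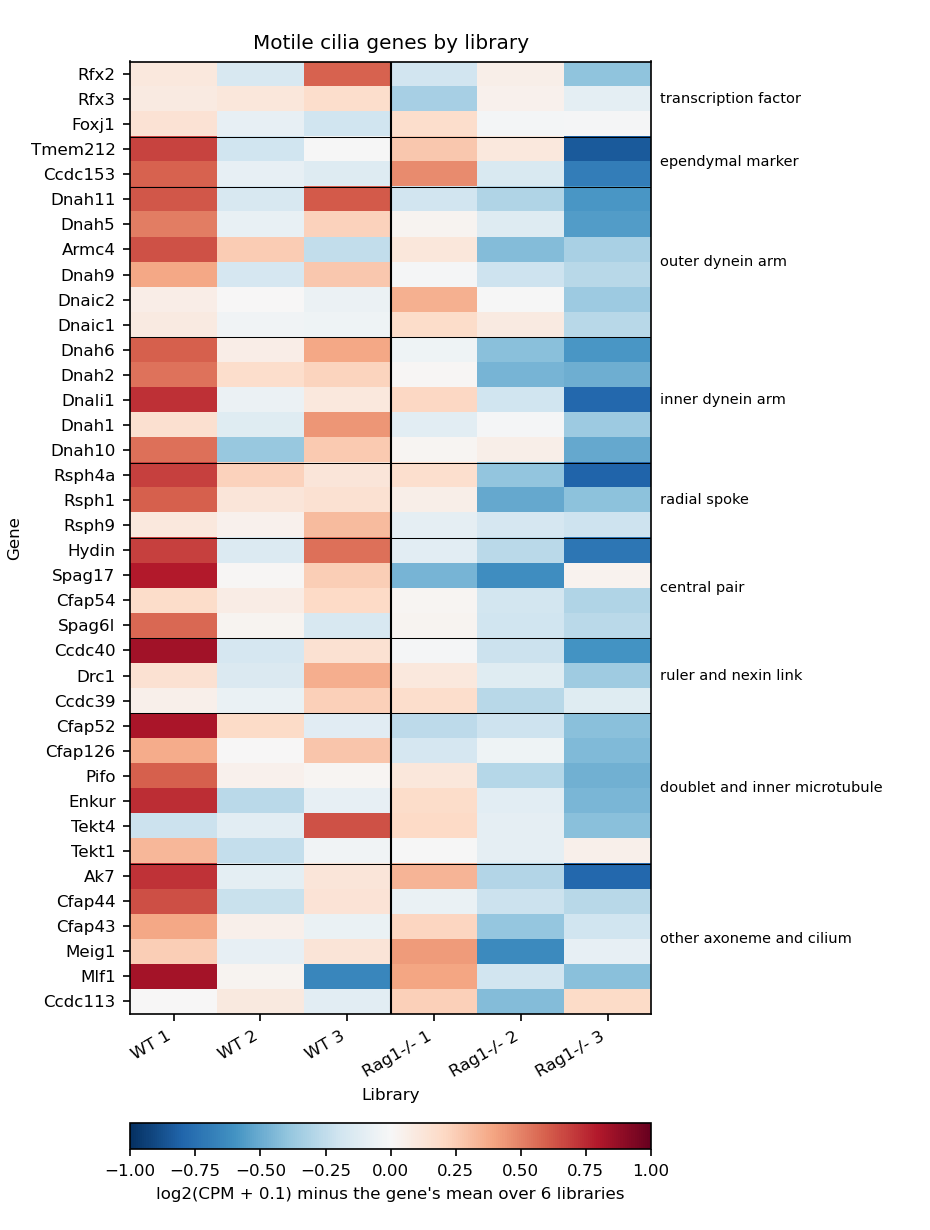
Log2(CPM + 0.1) of each of the 38 genes minus its mean over the 6 libraries (colour, red above and blue below), with libraries on the x axis and genes on the y axis grouped by role. WT replicate 1 is red in nearly every row and Rag1-/- replicate 3 blue in nearly every row, while WT replicate 2 and Rag1-/- replicate 1 hold both colours.

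Of the ruler and nexin link genes, 0 of 3 were lower at p of at most 0.05, and the median was -0.25. Ccdc39 (chromosome 3, 33812361 to 33844310, minus strand), a ruler protein, was at 3.71, 3.41 and 4.23 CPM in WT, against 4.04, 2.93 and 3.27 CPM among libraries labelled Rag1-/-, with overlap. Its partner Ccdc40 had a difference of -0.55 (SE 0.26), and Drc1, of the nexin link, -0.25 (SE 0.17).

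Genes of the doublets and of proteins inside them had a median of -0.35. Where 9.29% of all genes were lower at p of at most 0.05, 2 of 6 were lower here. These were Cfap126, with a difference of -0.44 (SE 0.16), and Cfap52, an inner doublet protein, with -0.59 (SE 0.24), both without overlap. Tekt4 (chromosome 17, 25471590 to 25476594, plus strand), a tektin filament protein, had the highest mean CPM of this group, at 2.31, 2.5 and 4.25 CPM in WT and at 3.12, 2.53 and 1.99 CPM in the others, and only WT replicate 3 stood above the rest. Tekt1, a second tektin, had a difference of -0.03 (SE 0.17), Enkur -0.26 (SE 0.29) and Pifo -0.43 (SE 0.24).

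Among the 6 other axonemal and ciliary genes the median was -0.22 and 0 of 6 were lower at p of at most 0.05. Ak7 (chromosome 12, 105705982 to 105782447, plus strand), an adenylate kinase of the axoneme, was at 5.29, 2.95 and 3.45 CPM in WT, against 4.04, 2.57 and 1.79 CPM among libraries labelled Rag1-/-. WT replicate 1 was high and Rag1-/- replicate 3 low, with overlap between. Ccdc113 (chromosome 8, 95534100 to 95558888, plus strand) was at 1.06, 1.14 and 0.977 CPM and at 1.27, 0.760 and 1.22 CPM, a log2 difference of 0.0024 (SE 0.21). Cfap43, Cfap44, Meig1 and Mlf1 had differences from -0.37 for Cfap44 to -0.14 for Mlf1, with overlapping groups.

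The 38 genes varied together across libraries, beyond the split by genotype. WT replicate 1 was the highest library for 25 of the 38 genes, WT replicate 3 for 8 and Rag1-/- replicate 1 for 5. Over all genes tested, WT replicate 1 was highest for 20.1%. Rag1-/- replicate 3 was the lowest library for 27 of the 38 and Rag1-/- replicate 2 for 7, where Rag1-/- replicate 3 was lowest for 17.1% of all genes. Relative to each gene's mean over the 6 libraries, the median of the 38 genes was 0.55, -0.06 and 0.14 (log2) in WT replicates 1, 2 and 3 and 0.04, -0.20 and -0.41 in Rag1-/- replicates 1, 2 and 3. Thus WT replicate 2 lay below Rag1-/- replicate 1. The same order was seen in the summed level of the 38 genes, which was 168, 129 and 145 CPM in WT, against 138, 120 and 108 CPM among libraries labelled Rag1-/-.

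Taken gene by gene, which does not show sharing, the spread within a genotype was also wide. The SD within groups on the log2 scale had a median of 0.306 over the 38 genes, against 0.103 over all genes and 0.122 over the 8344 genes with mean levels in the same range. That range runs from 0.659 to 26.1 CPM, while the median level of the 38 genes was 2.76 CPM, so noise at low levels is not set apart. Among those 8344 genes, 7.66% were lower at p of at most 0.05 and 12.8% had every library labelled Rag1-/- below every WT library.

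Other gene lists show what else moved with these libraries. The list of other motile cilia genes held 84 symbols, of which 79 were in the table and 76 were tested. Of the 76, 11 (14.5%) were lower and 1, Spag1, higher at p of at most 0.05, where 9.29% and 2.27% of all genes were, with a median of -0.24, which was -0.13 with a pseudocount of 1 and with quantile normalization. The smallest p belonged to Cfap45 at -0.72 (SE 0.19), Mns1 at -0.63 (SE 0.18), Wdr78 at -0.30 (SE 0.10), Deup1 at -0.67 (SE 0.21) and Ulk4 at -0.36 (SE 0.12). Cfap45 and Mns1 encode inner doublet proteins, and Deup1 a protein that multiplies centrioles in multiciliated cells.

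Intraflagellar transport genes, which primary cilia also use, had a median of -0.06 over 27 genes (-0.017 and -0.014 under the rescalings). At p of at most 0.05, 4 were lower (14.8%) and 1 higher, where 9.29% and 2.27% of all genes were. The 4 were Wdr35 at -0.25 (SE 0.05), Ift172 at -0.25 (SE 0.06), Ift81 at -0.22 (SE 0.06) and Dync2h1 at -0.23 (SE 0.07), and Hspb11 was higher at 0.27 (SE 0.10). All adjusted p by limma-trend in both lists were at least 0.238. Spaced X-box letters stood in windows of 17 of 63 other motile cilia genes (27.0%) and 3 of 23 transport genes (13.0%).

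**Figure D4:**
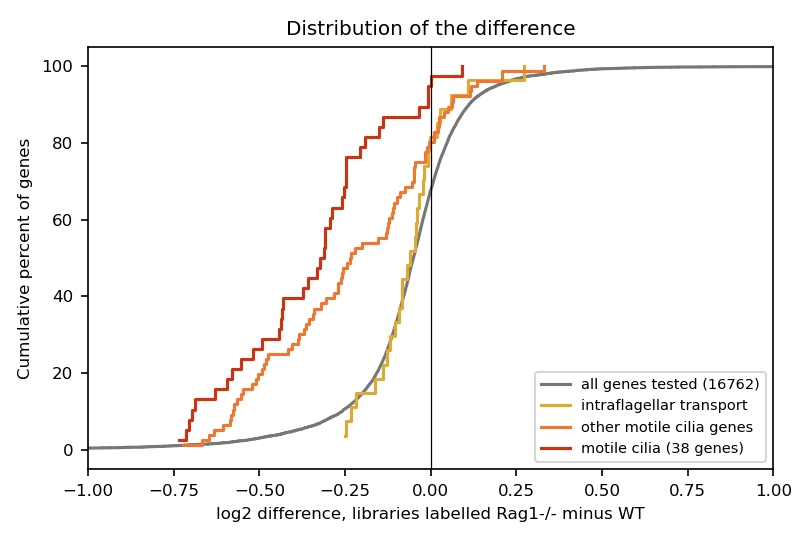
Cumulative percent of genes (y axis) by log2 difference between the libraries labelled Rag1-/- and WT (x axis, drawn from -1 to 1). The curve of the 38 motile cilia genes lies to the left, that of the other motile cilia genes lies between, and that of the intraflagellar transport genes is close to the curve of all genes tested.

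Genes that ependymal cells express outside the cilium were high and low in partly the same libraries. Over 9 such genes the median deviation was 0.21, 0.00 and 0.10 in WT and -0.01, -0.07 and -0.17 in the libraries labelled Rag1-/-, and the median difference was -0.21. WT replicate 1 was highest for 4 of 9 and lowest for 1, and Rag1-/- replicate 3 was lowest for 4. Their summed level was 212, 203 and 221 CPM in WT, against 190, 187 and 185 CPM among libraries labelled Rag1-/-, so by sum WT replicate 3 was highest. At p of at most 0.05, Pltp (-0.21, SE 0.06) and Ezr (-0.23, SE 0.09) were lower and Prom1 (0.17, SE 0.06) higher, where 9.29% and 2.27% of all genes were. Astrocyte and neuron lists had median differences of 0.02 and 0.01. At p of at most 0.05, 1 of 8 astrocyte genes was higher (Aqp4, 0.19, SE 0.06) and 0 lower. Of the 6 neuron genes, 0 were lower and 0 higher. A list of 5 genes of the meninges had a median of -0.30, with 2 of 5 lower at p of at most 0.05, against 9.29% of all genes.

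Markers of neighbouring tissue moved with single libraries in other orders. All 15 genes of the choroid plexus, whose epithelium lies beside the ependyma, were detected and none was at 0. Their summed level was 1678, 2044 and 1001 CPM in WT, against 1156, 1261 and 1249 CPM among libraries labelled Rag1-/-. Most of this sum came from Ttr and Enpp2, at mean levels of 692 and 615 CPM, with differences of -0.51 (SE 0.29) and -0.06 (SE 0.14). The median deviation of the 15 genes was 0.41, 0.56 and -0.37 in WT and -0.34, -0.02 and -0.22 in the others. So WT replicates 1 and 2 were high in choroid plexus genes, where WT replicate 2 was at -0.06 for motile cilia genes. At p of at most 0.05, 3 of 15 choroid plexus genes were lower (Clic6, Otx2 and Prlr) and 0 higher, where 9.29% and 2.27% of all genes were. Their median difference was -0.37. The 6 markers of cerebellar granule neurons were highest in WT replicate 3, with a median deviation of 2.30, and next in Rag1-/- replicate 2, with 0.83. How far the amount of ventricular wall, choroid plexus or cerebellum in each dissected piece contributes to the genotype values of the 38 genes was not tested.

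**Figure D5:**
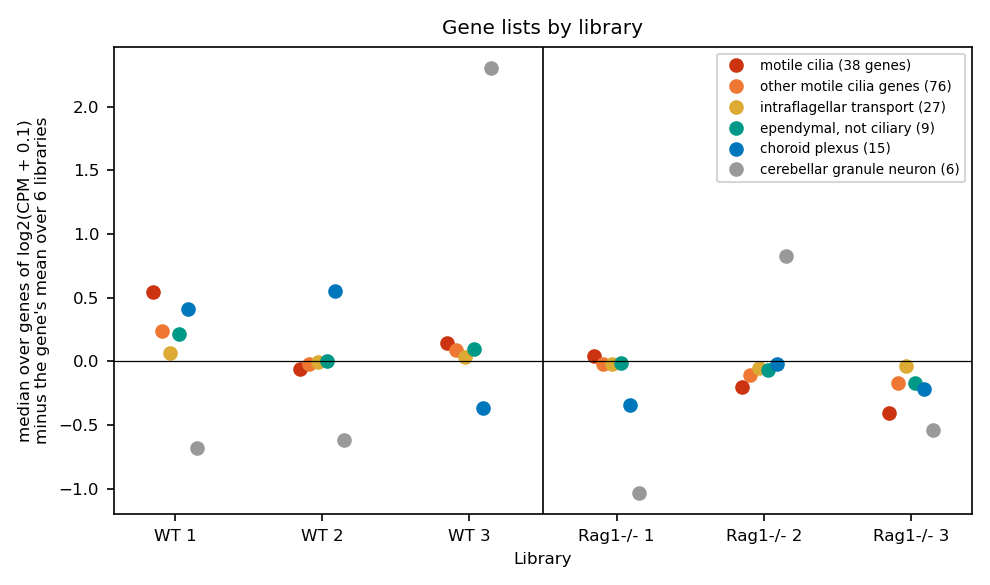
Median deviation of 6 gene lists in each library (y axis, log2(CPM + 0.1) minus the gene's mean over 6 libraries; number of genes tested in brackets). Motile cilia genes are highest in WT replicate 1 (0.55) and lowest in Rag1-/- replicate 3 (-0.41); choroid plexus genes are high in WT replicates 1 and 2, and cerebellar granule neuron genes in WT replicate 3.

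Transcript length moved with the counts as well. Of the 13 genes on the list whose longest transcript exceeds 5000 bases, 7 (53.8%) were lower at p of at most 0.05, with a median difference of -0.37. Of the 25 shorter genes, 5 (20%) were lower, with a median of -0.29. Over all genes tested, 18.8% of the 3546 longer and 6.75% of the 12952 shorter genes were lower, with medians of -0.09 and -0.04. Rag1-/- replicate 1 was the lowest library for 42.8% of the longer and 20.1% of the shorter genes, with median deviations of -0.08 and -0.01. Among the 13 longer cilia genes it was lowest for 1, and Rag1-/- replicate 3 for 10. The part of transcript length in these values was not tested. Reads of 6 of the 38 genes could also be shared with a gene that overlaps them, namely Dnah11 with Cdca7l, Spag17 with Wdr3, Dnali1 with Gnl2, Ccdc39 with Ttc14 and Dnaic1 with Enho, which lie on the opposite strand (use of strand in counting is not stated), and Spag6l with Rpl31-ps12 on its own strand.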

How the data were processed

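Total RNA from 6 snap-frozen mouse brainstems, 3 WT and 3 Rag1-/-, was extracted with a QIAGEN RNeasy kit and sequenced on an Illumina HiSeq. The authors aligned the reads with STAR 2.5.3a to mm10 RefSeq transcripts in Partek Flow and deposited gene values in CPM (counts scaled to library size), to which 0.0001 was added. Groups follow the genotype label, and the labels state separate mice.

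Genes with a mean CPM of 0.1 or more (16762) entered limma-trend (limma 3.58.1, R 4.3.3) on log2(CPM + 0.1), with Benjamini-Hochberg adjustment. This is the model the methods name. The test was also run on simulated data, but with changes larger than that of any gene of the list (Hydin, at -0.74, was the largest in size). How the test performs at the differences reported here, or for genes that vary together, was not shown by that run. Single genes also had an exact two-sided permutation test. Steps among small values gave the CPM of 1 read; 85.2% to 86.7% of them were whole multiples of it (within 0.1 read), too few for a test on counts. Replicate numbers did not pair the libraries (correlations of deviations 0.0926, -0.220 and -0.0183).

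The 38 genes, their roles and the other lists were chosen with earlier results of these data known. Library values are given for Foxj1, Ccdc153, Tmem212, the gene with the highest mean CPM of each role, the 5 smallest p and the 3 largest differences in each direction; Rfx3 was added after its values were seen. Of other lists at most 5 genes are named. Coordinates are those of the deposited table (mm10), with the end 1 base before the deposited stop. Transcript lengths were read from GENCODE and promoter windows from RefSeq (GRCm38.p6). Alternatives were other pseudocounts, filters, scalings and variance models, a replicate block, an Xist term (over 100 CPM or not) and leaving out each library.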

Additional observations from a re-analysis of the deposited data

How the results depend on the processing

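In every alternative run, 0 of the 38 genes had an adjusted p under 0.05 by limma-trend, against 12 that were lower with p of at most 0.05 before adjustment. No test on counts was run, since whole reads were recovered for 85.2% to 86.7% of low values and not for nearly all, and values near 12 reads carry a large counting error. The median difference stayed negative, from -0.48 without WT replicate 2 to -0.24 with a pseudocount of 1 and without Rag1-/- replicate 3. The number of genes lower at p of at most 0.05 was 7 with quantile normalization, 7 with an Xist term (WT replicate 3 alone against the other group), 9 without the trend, 10 with median-of-ratios rescaling and 11 of 34 genes at a mean of at least 1 CPM; 3.82%, 12.3%, 7.67%, 4.15% and 9.94% of all genes were lower in these fits. It ranged from 5 to 18 when single libraries were left out. The number higher ranged from 0 to 1; the 1 was Foxj1, without WT replicate 1. The number of genes with every library labelled Rag1-/- below WT was 5 (13.2%) with quantile normalization, where 6.81% of all genes were so separated. It ranged from 9 to 23 with libraries left out, where 19.1% to 23.5% of all genes were so separated. The higher counts were 19 without WT replicate 2 and 23 without Rag1-/- replicate 1. The number above ranged from 0 to 1. What causes these shifts was not tested.

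The replicate numbers are shared between genotypes but did not pair the libraries. A fit with the replicate block gave 15 genes (39.5%) lower at p of at most 0.05, where 6.59% of all genes were, 11 of them among the 12, 0 with an adjusted p under 0.05 and a median of -0.32.

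Some differences changed sign, among them those of Tmem212, Enkur, Ccdc153 and Tekt4 with 1 library left out. Ccdc113 was at -0.000333 with a pseudocount of 0.01. With median-of-ratios rescaling and with quantile normalization, Dnaic1 was at 0.037 and 0.0722, Dnaic2 at 0.0341 and 0.0791, and Tekt1 at 0.00725 and 0.0542. With single libraries left out, the ranges were -0.118 to 0.218 for Ccdc113, -0.546 to 0.035 for Ccdc153, -0.0987 to 0.13 for Dnaic1, -0.188 to 0.171 for Dnaic2, -0.455 to 0.047 for Enkur, -0.454 to 0.0767 for Meig1, -0.499 to 0.243 for Mlf1, -0.163 to 0.121 for Tekt1, -0.367 to 0.0591 for Tekt4 and -0.523 to 0.0334 for Tmem212. List medians ranged from -0.00314 to 0.0392 for astrocytes, -1.05 to 0.313 for cerebellar granule neurons and -0.0151 to 0.0182 for neurons. Of 300 gene values under the other alternatives, without the Xist term, 7 changed sign, and of 228 with a library left out 16 did. With the Xist term 7 of 38 changed sign: Armc4, Spag6l, Ccdc153, Mlf1, Tekt1, Dnaic2 and Dnaic1.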
